A study of Homo sapiens with 7 samples.

Results

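The noncollagen matrix genes described here were 39 genes of the extracellular matrix other than collagens, laminin chains, fibrillins, fibulins, thrombospondins and their relatives, read in 7 lines of human HT1080 fibrosarcoma cells. They were a named list, and each was taken from the array annotation by its gene symbol. Of the 39 genes, 38 had a probe, out of 20045 genes with a probe on the array, and 35 of these were detected on at least 1 array, out of 13580 genes detected. The probe of each gene was the one with the highest mean deposited signal, and values below are those of this probe unless another is named.

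HT1080 is an invasive human fibrosarcoma line with little PTK7 of its own, and PTK7 is a membrane pseudokinase that is cut by the matrix protease MT1-MMP, by ADAM proteases and by gamma-secretase. The 6 derived lines were stable transfectants. In shPTK7 cells PTK7 was silenced by an shRNA, and they were a pool of silenced clones. PTK7 cells expressed the full-length membrane protein, Chz cells expressed its Chuzhoi mutant with an additional MT1-MMP cleavage site, and sPTK7 cells expressed the soluble ectodomain. The C-terminal fragments were expressed in cPTK7/622-1070 and in cPTK7/726-1070 cells, residues 622 to 1070 as left by MT1-MMP and residues 726 to 1070 as left by ADAM and gamma-secretase. The HT1080 array that served as the control of every line is labelled as a scrambled control, and the methods call these cells parental. Every line was grown for 72 h to a subconfluent culture, and RNA of each was hybridized to 1 Illumina HumanHT-12 v4 array, with all 7 arrays on 1 chip. No line was repeated, so no test could be run and the spread between cultures is unknown. Each fold below compares 2 arrays.

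The extracellular matrix is the network of secreted proteins that cells attach to. Laminins, which are trimers of an alpha, a beta and a gamma chain, form the sheet of the basement membrane, and nidogens, perlecan and agrin tie that sheet to collagen and to cells. Fibrillins and fibulins build microfibrils and elastic fibres, lysyl oxidases cross-link collagen and elastin, and matricellular proteins such as thrombospondins, SPARC and tenascin are secreted into the matrix and modulate adhesion rather than bear load. Fibrosarcoma cells are of mesenchymal origin, and cells of this kind are known for making such proteins and for crossing them.

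Between 19045 and 20515 probes were detected per array at a detection p under 0.05, which is the share of negative control probes at least as bright as the probe. The lowest detected normalized signal, taken as the floor of an array, lay between 53.8 and 60.9. VIM, vimentin, was between 43630 and 57034 on all 7 arrays, and the mesenchymal markers THY1 and COL1A2 were detected on none. Of 8 mesenchymal markers 6 were detected, and of these S100A4 was lower by 2-fold or more in shPTK7, PTK7 and Chz cells and CDH2 in PTK7 and cPTK7/726-1070 cells. Of other cell types, 4 of 7 epithelial, 2 of 5 leukocyte and blood and 1 of 5 endothelial markers with a probe were detected. None of them was called at 2-fold in any line. The epithelial markers KRT8, at 1366 to 3125, and KRT18, at 413 to 742, were detected on all 7 arrays. The leukocyte markers CD14 and LYZ were detected on 6 arrays each, and CDH1, PTPRC and PECAM1 on no array. The summed signal ranged over the arrays from 50019 to 69283 for the mesenchymal, from 2251 to 3843 for the epithelial, from 187 to 310 for the leukocyte and from 164 to 249 for the endothelial list, and the part of these markers in the results below was not tested. PTK7 itself read 112 in PTK7 cells and 137 in Chz cells, against 104 in HT1080 cells, and it was detected in none of the other 4 lines. Against HT1080 cells PTK7 was thus lower by at least 1.94-fold in shPTK7 and 1.76-fold in sPTK7 cells. In cPTK7/622-1070 cells it was at least 1.83-fold and in cPTK7/726-1070 cells at least 1.74-fold lower. This probe therefore did not set the silenced line apart from these lines. The position of this probe in the transcript and in the constructs is not given in the sources used here, so the overexpression named in the labels was neither seen nor checked with it. At the protein level the authors report from immunoblots that PTK7 was efficiently silenced in shPTK7 cells. They also report comparable levels of the tagged PTK7, sPTK7 and Chz constructs, and rather low endogenous PTK7 at the surface of sPTK7 and cPTK7/726-1070 cells.

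A gene was called when its signal was detected on the brighter array and lay 2-fold or more away from the HT1080 signal, and a fold against an undetected array is a lower bound set by the floor. No fold is given where neither array detected the gene or where the floor of the undetected array lay above the detected signal. The 35 detected matrix genes gave 30 calls over the 6 lines, 7 higher and 23 lower, and 15 of them (42.9%) were called in at least 1 line, beside 13.1% of all 13580 detected genes. Because the list was chosen with earlier results of these data known, this and the shares below describe it and are not a test. All 6 comparisons used the same HT1080 array, so a low or high reading on it would enter each of them. The median of the 7 arrays includes the line compared, so as a reference it can hide a change shared by most lines. With this median in place of HT1080 cells 13 of the 30 calls remained. These were LOXL1 in shPTK7, LAMA4, LAMA5, SPARC and SPOCK1 in PTK7, THBS1, FBLN1 and EFEMP2 in Chz, THBS1, TGFBI and LOX in sPTK7 and THBS1 and EFEMP1 in cPTK7/726-1070 cells.

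PTK7 cells had the most genes called lower. There 8 of the 35 genes were lower, which is 22.9%, beside 3.52% of all genes, and none was higher, beside 2.46% of all genes. The 8 genes were LAMA4, LAMA5, LAMC1, THBS1, THBS2, SPARC, SPOCK1 and TGFBI. In Chz cells 4 genes were higher (LAMA4, THBS1, FBLN1 and EFEMP2) and 4 were lower (LAMA5, TGFBI, BGN and FBN2), 11.4% each way, beside 2.05% of all genes higher and 1.77% lower. In sPTK7 cells LAMA4, THBS1 and LOX were higher, 8.57% of the genes, beside 1.84% of all genes, and TGFBI and BGN were lower, 5.71%, beside 1.84%. In shPTK7 cells LAMA5, BGN, LOX and LOXL1 were lower, 11.4% of the genes, beside 1.6% of all genes, and none was higher, beside 1.19%. In cPTK7/622-1070 cells THBS1 and BGN were lower, 5.71% beside 0.758% of all genes, and in cPTK7/726-1070 cells THBS1, SPOCK1 and EFEMP1 were lower, 8.57% beside 1.56%. Neither fragment line had a matrix gene called higher, beside 0.7% of all genes in cPTK7/622-1070 cells and 1.49% in cPTK7/726-1070 cells.

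The median log2 fold of the 35 genes was -0.05 in shPTK7 cells, -0.32 in PTK7 cells, 0.02 in Chz cells, 0.09 in sPTK7 cells, 0.01 in cPTK7/622-1070 cells and -0.04 in cPTK7/726-1070 cells. The median over all detected genes lay between -0.03 in shPTK7 cells and 0.07 in PTK7 cells. Genes with no fold enter these medians at their floored values. Over the members with a fold or a bound, the median was -0.38 in shPTK7 cells (30 genes), -0.53 in PTK7 cells (28 genes) and -0.43 in cPTK7/726-1070 cells (27 genes), and it stayed between -0.10 and 0.10 in the other 3 lines. Over all genes with a fold or a bound the median was 0.0175 in shPTK7, -0.0038 in PTK7 and -0.011 in cPTK7/726-1070 cells. In PTK7 cells 22 of the 28 genes read lower than in HT1080 cells, beside 5909 of 11725 over all genes. Most of the 22 were lower by less than 2-fold.

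**Figure D1:**
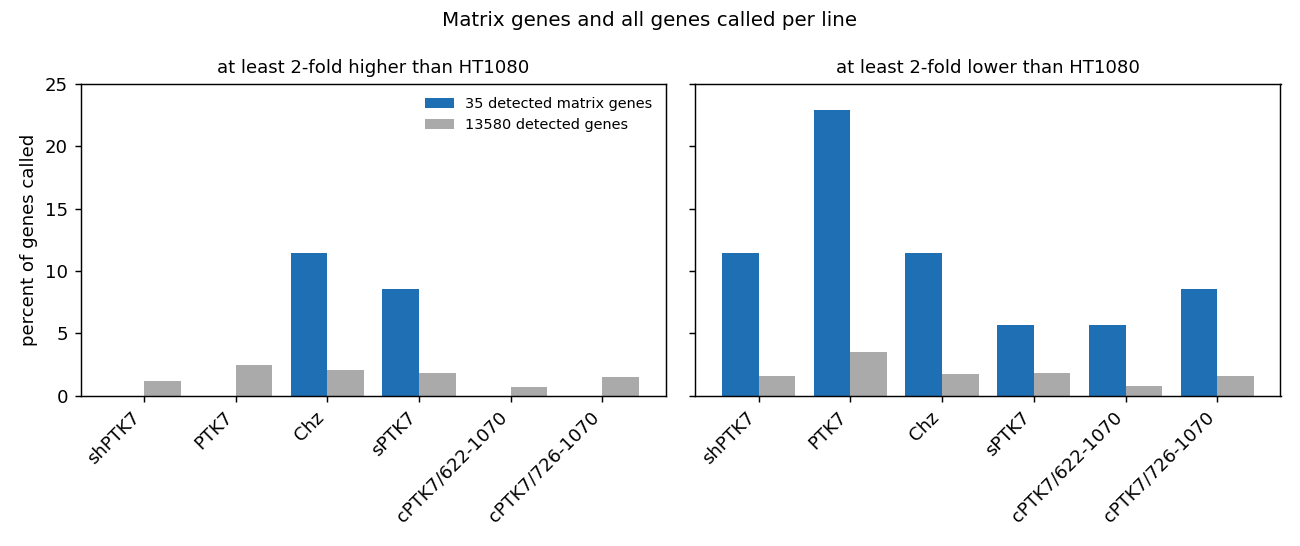
Percent of the 35 detected matrix genes (blue) and of all 13580 detected genes (grey) at least 2-fold higher (left) or lower (right) than HT1080 cells, for each of the 6 lines with 1 array per line. PTK7 cells have the tallest bar, 22.9% of the matrix genes lower, and bars of matrix genes higher appear in Chz and sPTK7 cells.

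Among the laminin chains 3 of the 8 detected genes were called, LAMA4, LAMA5 and LAMC1. That is 37.5%, beside 13.1% of all detected genes called in at least 1 line. LAMA4, the alpha chain of laminins of vessels and muscle, had a normalized signal of 325 in shPTK7, 632 in Chz, 545 in sPTK7, 205 in cPTK7/622-1070 and 377 in cPTK7/726-1070 cells, against 214 in HT1080 cells, and it was not detected in PTK7 cells. It was thus at least 3.52-fold lower in PTK7 cells, 2.95-fold higher in Chz cells and 2.55-fold higher in sPTK7 cells. A second LAMA4 probe was detected on all 7 arrays. It read 111 in PTK7 cells, 2.03-fold lower, and did not reach 2-fold in Chz (1.86-fold higher) or sPTK7 cells (1.51-fold higher). Without the background correction the first probe also missed 2-fold in PTK7 and sPTK7 cells. Since RNA was taken from whole cultures, fewer cells with a transcript and less of it per cell cannot be told apart, here and below.

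LAMA5, the alpha chain found in most adult basement membranes, read 1032 in shPTK7, 653 in PTK7, 1374 in Chz, 1618 in sPTK7, 2308 in cPTK7/622-1070 and 3476 in cPTK7/726-1070 cells, against 3033 in HT1080 cells. Both fragment lines stayed near HT1080 cells and the other 4 lines were lower, by 4.64-fold in PTK7, 2.94-fold in shPTK7, 2.21-fold in Chz and 1.87-fold in sPTK7 cells, the last short of a call. LAMC1, the gamma chain shared by most laminins, read 7133 in shPTK7, 4095 in PTK7, 8977 in Chz, 6962 in sPTK7, 7285 in cPTK7/622-1070 and 6603 in cPTK7/726-1070 cells, against 9319 in HT1080 cells. HT1080 cells had the highest reading and the call was in PTK7 cells, 2.28-fold lower.

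The other 5 detected laminin chains were not called. LAMA1, the alpha chain of the early embryo, ranged from 351 in PTK7 to 569 in sPTK7 cells, but its second, dimmer probe read 179 in sPTK7 and 177 in cPTK7/726-1070 cells, against 76.3 in HT1080 cells, 2.35-fold and 2.32-fold higher. Here the 2 probes of the gene disagreed. LAMA2, the muscle alpha chain, was detected by its brighter probe on 4 arrays at 71.9 to 89.8 and not in PTK7, Chz or HT1080 cells, and its second probe was detected in Chz cells at 81.3 and in shPTK7 cells at 61.2. LAMB1, the common beta chain, ranged from 551 in cPTK7/726-1070 to 1419 in Chz cells, and in Chz cells its first probe was 1.82-fold higher and its second probe 2.51-fold higher than in HT1080 cells. LAMB2 ranged from 193 in shPTK7 to 337 in HT1080 cells. LAMB3, a chain of the laminin of skin, ranged from 7566 in shPTK7 to 11417 in cPTK7/726-1070 cells, and 62.4% of all detected genes varied more over the 7 arrays. LAMA3 had no probe under its symbol.

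**Figure D2:**
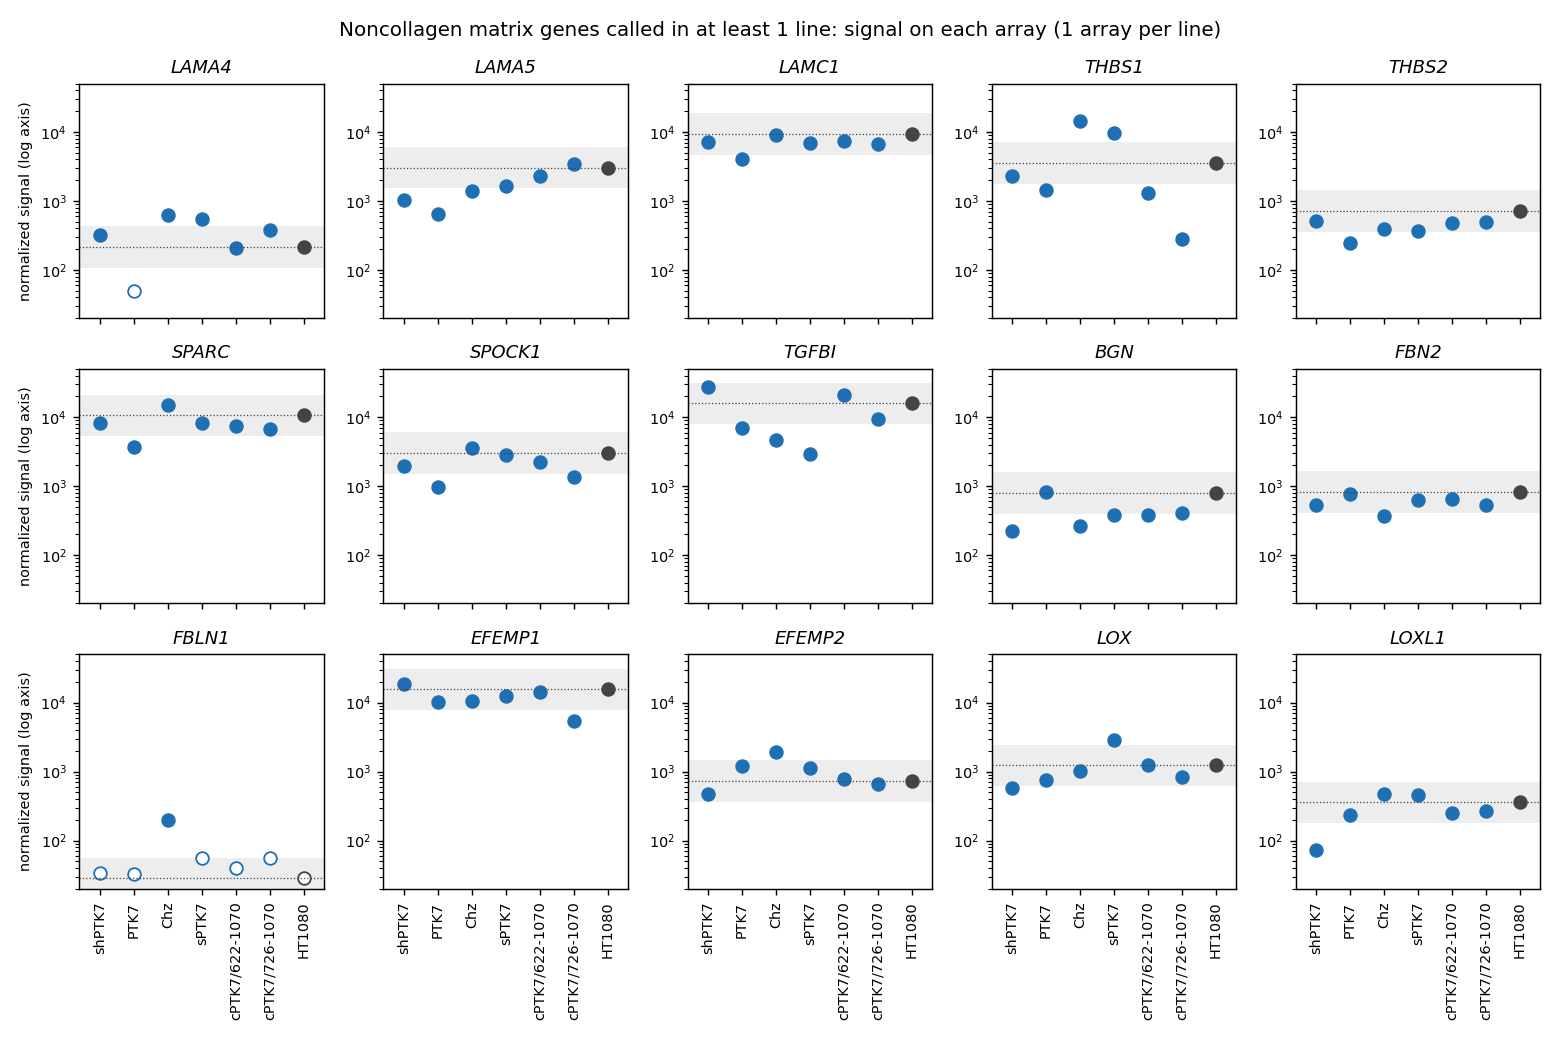
Normalized signal (log axis) of the 15 called matrix genes in the 6 lines (blue) and in HT1080 cells (dark grey), 1 array each. Open circles were not detected, the dotted line is the HT1080 signal and the grey band spans 2-fold either side of it. THBS1 lies above the band in Chz and sPTK7 cells and below it in PTK7 and both fragment lines.

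None of the 4 detected linkers of the basement membrane was called, beside 13.1% of all detected genes called in at least 1 line. NID1, nidogen that bridges laminin and collagen, ranged from 64.7 in PTK7 to 143 in cPTK7/622-1070 cells and was not detected in cPTK7/726-1070 cells. AGRN, agrin, ranged from 1108 in shPTK7 to 1982 in Chz cells. NID2 was detected in shPTK7 cells alone, at 58.7, and HSPG2, perlecan, in HT1080 cells alone, at 57.0, both near the floor.

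Of fibronectin and the matricellular genes 5 of the 9 detected (55.6%) were called in at least 1 line, beside 13.1% of all detected genes. PTK7 cells were lower in all 5. THBS1, thrombospondin that binds cell-surface receptors and can activate latent TGF-beta, had the widest range of the 35 genes. It read 2281 in shPTK7, 1423 in PTK7, 14532 in Chz, 9672 in sPTK7, 1306 in cPTK7/622-1070 and 276 in cPTK7/726-1070 cells, against 3519 in HT1080 cells. Chz cells were 4.13-fold and sPTK7 cells 2.75-fold higher, and PTK7 cells were 2.47-fold, cPTK7/622-1070 cells 2.69-fold and cPTK7/726-1070 cells 12.8-fold lower. The highest array was 52.7-fold above the lowest, and 0.103% of all detected genes had a wider range. The calls in PTK7 and cPTK7/622-1070 cells missed 2-fold when the median of the 7 arrays stood in for HT1080 cells.

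THBS2, a related thrombospondin of connective tissue, read 517 in shPTK7, 248 in PTK7, 391 in Chz, 371 in sPTK7, 482 in cPTK7/622-1070 and 488 in cPTK7/726-1070 cells, against 707 in HT1080 cells. Every line was below HT1080 cells, and PTK7 cells were called, 2.85-fold lower. SPARC, a collagen-binding glycoprotein, read 8255 in shPTK7, 3695 in PTK7, 15199 in Chz, 8322 in sPTK7, 7380 in cPTK7/622-1070 and 6805 in cPTK7/726-1070 cells, against 10644 in HT1080 cells, and its call was 2.88-fold lower in PTK7 cells. SPOCK1, a secreted proteoglycan of the SPARC family, read 1931 in shPTK7, 984 in PTK7, 3559 in Chz, 2874 in sPTK7, 2256 in cPTK7/622-1070 and 1343 in cPTK7/726-1070 cells, against 3031 in HT1080 cells. It was 3.08-fold lower in PTK7 cells and 2.26-fold lower in cPTK7/726-1070 cells.

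TGFBI, a matrix protein induced by TGF-beta that binds collagen and integrins, did not follow the order of THBS1. It read 27541 in shPTK7, 7083 in PTK7, 4722 in Chz, 2897 in sPTK7, 20834 in cPTK7/622-1070 and 9337 in cPTK7/726-1070 cells, against 15847 in HT1080 cells. It was 5.47-fold lower in sPTK7, 3.36-fold in Chz and 2.24-fold in PTK7 cells. Short of a call, cPTK7/726-1070 cells read 1.70-fold lower and shPTK7 cells 1.74-fold higher. The calls in Chz and PTK7 cells missed 2-fold with the median of the 7 arrays in place of HT1080 cells. So Chz and sPTK7 cells were called higher for THBS1 and lower for TGFBI. FN1, fibronectin, was dim and by its brightest probe ranged from 70.9 in PTK7 to 139 in Chz cells, without detection in cPTK7/726-1070 cells. THBS3 ranged from 67 in Chz to 183 in sPTK7 cells and TNC, tenascin-C, from 475 in Chz to 1265 in cPTK7/726-1070 cells, neither with a call. POSTN, periostin, was detected in PTK7 cells alone, at 65.9.

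The 250 bases before the RefSeq start of THBS1, THBS2, SPARC and TGFBI (GRCh38.p14) are printed 5′ to 3′ on the strand of the gene. These 4 genes, all lower in PTK7 cells, were picked after the matches were seen. Of the 4, 3 hold the same short motif, the TEAD letters, and TGFBI does not. LAMA4, LAMA5 and LAMC1, also lower in PTK7 cells and with a promoter, do not hold it either and are not printed. Capitals mark matches on either strand to the TEAD letters GGAATG, the GC box GGGCGG and the TATA box TATAAA. The region of THBS1 is chr15:39580829-39581078 (plus strand), of THBS2 chr6:169253847-169254096 (minus), of SPARC chr5:151686916-151687165 (minus) and of TGFBI chr5:136028738-136028987 (plus).
THBS1: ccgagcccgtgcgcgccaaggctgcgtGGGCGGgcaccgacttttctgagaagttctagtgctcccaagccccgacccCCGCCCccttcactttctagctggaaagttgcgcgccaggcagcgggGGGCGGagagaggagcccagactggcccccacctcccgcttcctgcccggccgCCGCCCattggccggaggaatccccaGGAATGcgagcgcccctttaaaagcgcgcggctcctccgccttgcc
THBS2: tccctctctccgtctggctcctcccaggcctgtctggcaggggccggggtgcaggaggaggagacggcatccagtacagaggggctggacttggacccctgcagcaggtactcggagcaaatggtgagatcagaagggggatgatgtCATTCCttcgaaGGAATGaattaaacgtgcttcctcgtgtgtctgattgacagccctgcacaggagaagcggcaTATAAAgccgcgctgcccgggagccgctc
SPARC: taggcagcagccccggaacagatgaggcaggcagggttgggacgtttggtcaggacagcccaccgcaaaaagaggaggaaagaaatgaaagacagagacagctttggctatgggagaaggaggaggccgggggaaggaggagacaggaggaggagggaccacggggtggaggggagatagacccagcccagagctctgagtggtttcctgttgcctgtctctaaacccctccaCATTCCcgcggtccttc
TGFBI: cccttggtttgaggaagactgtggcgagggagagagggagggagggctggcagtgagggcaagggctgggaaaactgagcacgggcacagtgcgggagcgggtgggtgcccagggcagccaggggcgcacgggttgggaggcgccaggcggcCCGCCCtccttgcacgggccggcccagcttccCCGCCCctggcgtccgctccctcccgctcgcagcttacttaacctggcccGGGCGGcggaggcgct
The TEAD match begins 46 bases before the start in THBS1, 103 and 91 bases before it in THBS2 and 17 bases before it in SPARC. THBS1 has GC boxes at 223, 172, 125 and 72 bases and TGFBI at 98, 66 and 16 bases, and THBS2 has a TATA box at 29 bases. RefSeq promoters were given for 30 of the 38 members with a probe. The TEAD letters occurred in 5 of these 30 (LAMA2, THBS1, THBS2, SPARC and FBN1) and in 3 of the 7 with a promoter among the 8 genes lower in PTK7 cells, beside 11.9% of 35116 promoters. The GC box occurred in 22 of the 30, beside 42.6% of all promoters, and the TATA box in 2 (THBS2 and POSTN), beside 10.7%. The AP-1 letters TGANTCA occurred in 3 (LAMB3, POSTN and MFAP2), beside 6.57%, and the CRE letters TGACGTCA in 2 (FN1 and LTBP1), beside 1.65%, and neither in the 7. A member was counted if any of its promoters matched, and some had several, while the shares over all are per promoter. The counts and shares are therefore not like for like. A match describes the letters and not binding.

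BGN, biglycan, a small leucine-rich proteoglycan of collagen fibrils, was called lower in 4 lines, more than any other of the 35 genes. It read 225 in shPTK7, 837 in PTK7, 266 in Chz, 379 in sPTK7, 383 in cPTK7/622-1070 and 407 in cPTK7/726-1070 cells, against 796 in HT1080 cells. PTK7 and HT1080 cells stood together above the other 5 lines. The folds were 3.54 lower in shPTK7, 3.0 in Chz, 2.10 in sPTK7 and 2.08 in cPTK7/622-1070 cells, and 1.96 in cPTK7/726-1070 cells fell short of a call. None of these 4 calls was left with the median of the 7 arrays in place of HT1080 cells. That median was 383, the reading of cPTK7/622-1070 cells itself, so it cannot show a decrease shared by most lines. The calls in sPTK7 and cPTK7/622-1070 cells also ended without the background correction. DCN, decorin, was detected in cPTK7/622-1070 cells alone, at 64.1, and LUM, lumican, on no array.

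Of the microfibril and elastic fibre genes 4 of the 10 detected (40.0%) were called, each in 1 line. Of all detected genes 13.1% were called in at least 1 line. EFEMP2, a fibulin needed to assemble elastic fibres, read 475 in shPTK7, 1213 in PTK7, 1902 in Chz, 1135 in sPTK7, 775 in cPTK7/622-1070 and 660 in cPTK7/726-1070 cells, against 735 in HT1080 cells, and was 2.59-fold higher in Chz cells. FBLN1, another fibulin, was detected in Chz cells alone, at 201, at least 3.60-fold above HT1080 cells. Of its 4 other probes 2 were also detected in Chz cells alone, at 72.6 and 59.3, and 2 on no array. FBN2, a fibrillin mainly of the embryo, read 540 in shPTK7, 782 in PTK7, 365 in Chz, 632 in sPTK7, 644 in cPTK7/622-1070 and 542 in cPTK7/726-1070 cells, against 829 in HT1080 cells, and was 2.27-fold lower in Chz cells. The calls of FBLN1 and FBN2 both ended without the background correction. EFEMP1, a fibulin related to EFEMP2, read 18531 in shPTK7, 10279 in PTK7, 10532 in Chz, 12373 in sPTK7, 14024 in cPTK7/622-1070 and 5420 in cPTK7/726-1070 cells, against 15561 in HT1080 cells, and was 2.87-fold lower in cPTK7/726-1070 cells.

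The remaining microfibril genes were not called. Of the LTBP genes, LTBP1 and LTBP3 hold latent TGF-beta in the matrix. LTBP2 ranged from 217 in PTK7 to 391 in shPTK7 cells, LTBP3 from 270 in PTK7 to 607 in Chz cells, and LTBP1 was detected in shPTK7, Chz and sPTK7 cells at 58.1 to 74.0. FBLN2 was detected on 5 arrays at 61.8 to 91.1 and not in PTK7 or Chz cells. FBN1, the main fibrillin of adult tissue, was detected in PTK7 cells alone, at 75.1. The brighter MFAP2 probe was detected in shPTK7 cells, at 54.1, and the other in sPTK7 cells, at 64.0, and ELN was detected on no array.

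Both lysyl oxidases of the list that were detected, LOX and LOXL1, were called, beside 13.1% of all detected genes called in at least 1 line. LOX read 584 in shPTK7, 760 in PTK7, 1011 in Chz, 2850 in sPTK7, 1241 in cPTK7/622-1070 and 844 in cPTK7/726-1070 cells, against 1232 in HT1080 cells. It was 2.31-fold higher in sPTK7 cells, which stood apart from the other arrays, and 2.11-fold lower in shPTK7 cells, a call that ended without the background correction. LOXL1, known for its part in elastic fibre upkeep, read 73.4 in shPTK7, 235 in PTK7, 477 in Chz, 456 in sPTK7, 249 in cPTK7/622-1070 and 267 in cPTK7/726-1070 cells, against 356 in HT1080 cells. In shPTK7 cells it was near the floor and 4.86-fold lower. LOX and LOXL1 thus had their lowest reading in shPTK7 cells. Of the lysyl oxidases outside the list, LOXL3 was lowest in PTK7 cells, at 494, and LOXL4 was not called in any line. LOXL2 was detected on no array.

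**Figure D3:**
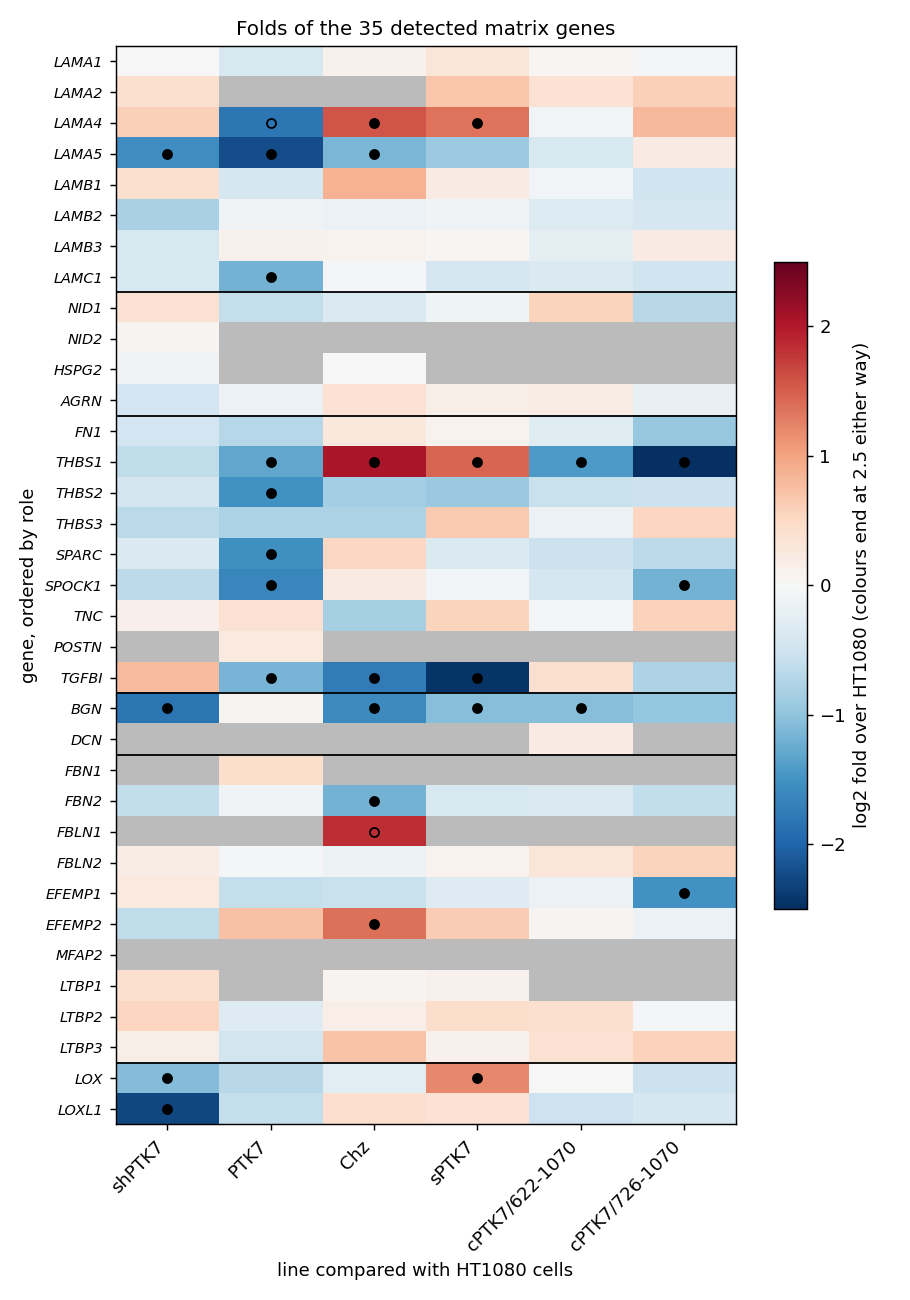
Log2 fold over HT1080 cells of the 35 detected matrix genes, ordered by role with lines between roles, in the 6 lines (1 array each). Red is higher and blue lower, filled dots are calls at 2-fold, open dots are calls whose fold is a lower bound, and grey marks pairs with no fold. The column of PTK7 cells is mostly blue among the laminins and matricellular genes, and the basement membrane linkers have no dot.

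The 35 genes varied more over the 7 arrays than detected genes did in general. Their list was chosen with earlier results of these data known, so this describes the list and is not a test. The highest over the lowest array had a median of 2.31-fold, beside 1.64-fold over all detected genes. For the 22 genes detected on all 7 arrays the median was 2.79-fold, beside 1.69-fold over 9550 such genes, and 7 of the 22 (31.8%) spanned at least 4-fold, beside 2.98%. After THBS1 the range was 10.4-fold for LAMA4, a lower bound by its brighter probe. It was 9.51-fold for TGFBI, 6.50-fold for LOXL1, 5.32-fold for LAMA5, 4.88-fold for LOX and 4.11-fold for SPARC.

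Chz and PTK7 cells both expressed a full-length PTK7 construct, which carried the Chuzhoi mutation in Chz cells. Their matrix genes were compared directly. They were separate stable transfectants and neither was repeated, so an effect of the mutation cannot be told apart from other differences between the lines. The authors also report low surface levels of the mutant, owing to its shedding. The part of the mutation in the differences below was not tested. Of the 35 genes 13 differed at least 2-fold, beside 9.23% of all genes. Higher in Chz cells were 10 (28.6%), beside 5.35% of all genes, and lower were 3 (8.57%), beside 3.88%. The laminin chains LAMA4, LAMA5, LAMB1 and LAMC1 were all among the 10. By its brighter probe LAMA4 read 632 in Chz cells and was not detected in PTK7 cells, at least 10.4-fold apart. Its second probe was detected in both and lay closer, at 420 in Chz and 111 in PTK7 cells. THBS1 read 14532 in Chz cells and 1423 in PTK7 cells, 10.2-fold apart. SPARC was 4.11-fold higher in Chz cells, SPOCK1 3.62-fold, FBLN1 at least 3.30-fold, LAMB1 2.45-fold, LTBP3 2.25-fold, LAMC1 2.19-fold, LAMA5 2.10-fold and LOXL1 2.03-fold. BGN was 3.15-fold, TNC 2.30-fold and FBN2 2.14-fold lower in Chz cells. LAMB1, LTBP3, LOXL1 and TNC were called here and, with the same probes, not against HT1080 cells in either line. Without the background correction 8 genes differed at least 2-fold, and 7 did in the authors' normalized table, and the share of all genes was computed for neither.

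**Figure D4:**
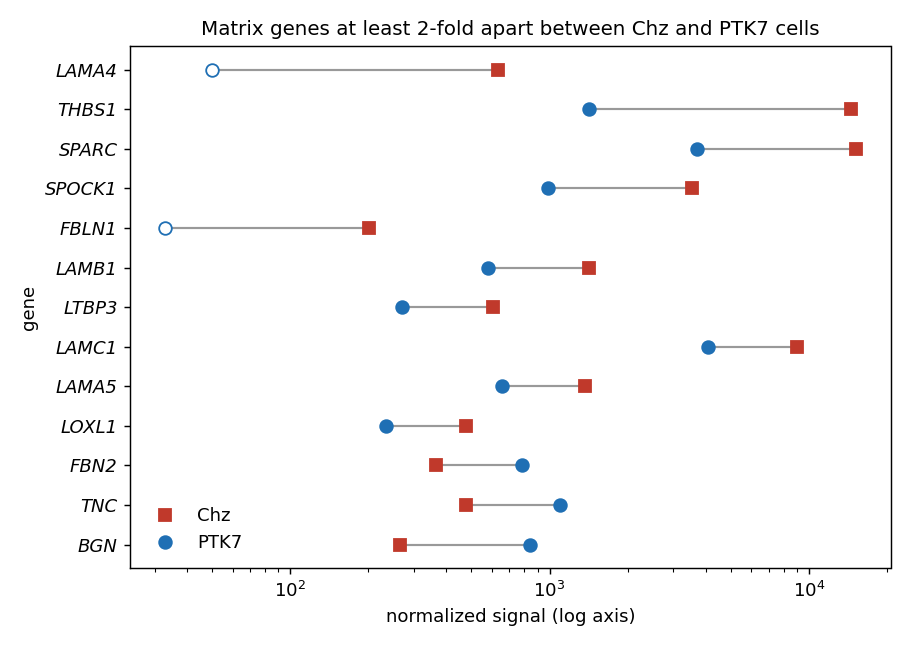
Normalized signal (log axis) of the 13 matrix genes at least 2-fold apart between Chz (red squares) and PTK7 cells (blue circles), 1 array each, sorted by fold. Open circles were not detected. In the upper 10 genes the Chz signal lies to the right of PTK7, and in FBN2, TNC and BGN to the left.

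The fragment lines expressed constructs that begin at different residues of PTK7. The authors report from immunoblots that part of the longer construct was processed in the cells to a form resembling the shorter construct. In cPTK7/726-1070 cells none of the 35 genes was at least 2-fold higher than in cPTK7/622-1070 cells, beside 1.06% of all genes, and 4 (11.4%) were lower, beside 0.876%. THBS1 read 276 in cPTK7/726-1070 cells and 1306 in cPTK7/622-1070 cells, 4.73-fold apart. EFEMP1 was 2.59-fold, TGFBI 2.23-fold and NID1 at least 2.37-fold lower in cPTK7/726-1070 cells. NID1 was not detected in cPTK7/726-1070 cells and read 143 in cPTK7/622-1070 cells.

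Of 41 other noncollagen matrix genes 18 were detected, and 5 of these (27.8%) were called in at least 1 line, beside 13.1% of all detected genes. EMILIN2, a glycoprotein of elastic tissue, was at least 8.20-fold lower in cPTK7/726-1070 cells. LOXL3, a further lysyl oxidase, was 3.05-fold lower in PTK7 and 2.35-fold lower in cPTK7/726-1070 cells, and MFAP5, a microfibril protein, was at least 2.79-fold lower in PTK7 cells. MATN2, matrilin, was at least 3.02-fold higher in Chz and at least 2.07-fold higher in cPTK7/622-1070 cells, and ECM1 was 2.01-fold higher in Chz cells. Of 22 receptors for matrix 16 were detected and 5 (31.2%) were called, each in 1 line, beside the same 13.1%. The integrin chains ITGA2 and ITGB5 were 2.41-fold and 2.19-fold lower in PTK7 cells, and ITGA6, a laminin-binding chain, was 2.03-fold higher in Chz cells. In cPTK7/726-1070 cells ITGAV was 2.56-fold lower and SDC2, syndecan, 2.24-fold higher. Between Chz and PTK7 cells 6 of the 16 receptors were at least 2-fold higher in Chz cells and none was lower, beside the same 5.35% and 3.88% of all genes.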

How the data were processed

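Gene expression was measured in 7 HT1080 lines on Illumina HumanHT-12 v4 arrays, 1 array per line. The file used holds, for 47230 probes, the intensity as the authors read it off the scanner, before any normalization, and a detection p-value deposited beside each. A second table holds intensities normalized by the authors, who name the BeadArray Reader and GeneSpring GX, and the method is not given in the sources used here. It was an alternative. No column was left unused for lack of a sample.

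The deposited intensities were background-corrected with the normexp model of limma 3.58.1 in R 4.3.3 (background inferred from the detection p-values, offset 16), quantile-normalized over the 7 arrays and put on the log2 scale. The annotation gave 30112 probes with 1 gene, 8 with several, which were not used, and 17110 with none listed. The dimmest detected probe of each array (detection p under 0.05) set a floor, to which dimmer values were raised before folds were taken. A gene was called at 2-fold or more if its brighter array had detected it. Welch's test, named in the methods, cannot be run with 1 array per line. Precision is limited by the number of arrays. The median of a list was described beside that of all detected genes, with no test. Promoters were searched on both strands in RefSeq sequences of GRCh38.p14. The scripts ran under Python 3.11.15 with matplotlib 3.10.9, scipy 1.17.1, pandas 2.3.3 and numpy 2.4.6, and the steps were tested on simulated data.

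Named genes were every member called in at least 1 line with all 7 values, the other detected members with their range, and called genes of the other matrix and receptor lists, up to 3 per line and direction. Genes called between Chz and PTK7 or between the fragment lines, the second probes and the printed promoters were chosen after their values were seen. The members and lists were chosen with earlier results of these data known. The 11 alternatives changed the background correction, offset, scaling, floor, detection limit, probe, reference and fold limit, or took the authors' table.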

Additional observations from a re-analysis of the deposited data

How the results depend on the processing

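No paired analysis was possible because each line has 1 array, and no array could be left out for the same reason. No call turned its direction under 8 alternatives, 11 of the 30 calls held in all 8, and 17 were lost when the median of the 7 arrays replaced HT1080 cells. With that median, shPTK7 cells had 1 gene higher and 1 lower, PTK7 cells 1 and 4, cPTK7/622-1070 cells 1 and 0, Chz cells 0 lower, sPTK7 cells 1 lower and cPTK7/726-1070 cells 1 higher, and the median log2 fold was 0.0554 in sPTK7 cells. The 11 calls that held were LOXL1 in shPTK7, LAMA5, SPARC and SPOCK1 in PTK7, THBS1 and EFEMP2 in Chz, THBS1, TGFBI and LOX in sPTK7 and THBS1 and EFEMP1 in cPTK7/726-1070 cells. Without background correction 7 calls were lost (LOX in shPTK7, LAMA4 in PTK7, FBN2 and FBLN1 in Chz, LAMA4 and BGN in sPTK7 and BGN in cPTK7/622-1070 cells), so 1 gene was lower in sPTK7 and 1 in cPTK7/622-1070 cells, 8 differed between Chz and PTK7 cells, and the sPTK7 median was 0.0326. The same 7 calls were lost in the authors' table, with 1 and 1 lower in those lines, 7 between Chz and PTK7 cells and a sPTK7 median of 0.0335. An offset of 50 left 1 lower in cPTK7/622-1070 cells, and a detection p under 0.01 gave a sPTK7 median of 0.0478. Scaling to the 75th percentile put the Chz median at -0.213 and moved the median of all genes in Chz cells to -0.15, from 0.02, with no call lost. Without the floor 1 gene was higher in shPTK7, 1 in PTK7 and 1 in cPTK7/726-1070 cells, and with any probe counted 1 was higher in cPTK7/726-1070 cells. At 1.5-fold shPTK7 cells had 2 higher and 10 lower, PTK7 cells 1 and 14, sPTK7 cells 6 and 4, cPTK7/726-1070 cells 2 and 9 and Chz cells 7 lower, and 10 genes differed between the fragment lines. The share of all genes called was not computed under the alternatives, so the counts given for them cannot be judged against all genes. The median over members with a fold or a bound was added after seeing the data. Of the 35 genes, 13 were undetected on at least 1 array, where a fold is a bound or is not given.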
